A study of Mus musculus with 32 samples.

Results

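H3K9ac was compared with H3K4me3 in *Kat2a* WT MLL-AF9 leukemia, region by region and promoter by promoter. The comparison used 4 of the 32 samples of the series, 16 of which were immunoprecipitated. These 4 libraries, replicates 1 and 2 of each mark, were chosen by genotype and mark alone. The study set *Kat2a* WT leukemia against *Kat2a* KO leukemia by chromatin immunoprecipitation and sequencing of 4 histone marks. The WT donors were *Kat2a* Flox/Flox and Mx1-Cre -/- mice on a C57Bl/6 background, aged 6 to 10 weeks. They received 5 injections of pIpC, the double-stranded RNA that induces Mx1-Cre, and so shared this treatment with the KO donors, although they carried no Cre. Their marrow was taken 4 to 6 weeks later, depleted of lineage-positive cells, transduced with an MLL-AF9 retrovirus and given to lethally irradiated recipients. Marrow from 5 animals with terminal leukemia was pooled, and 5000000 cells per condition were used for these marks. Both replicates of a mark came from this pool, so the spread between them was technical and no difference between animals could be measured. The deposited lists hold peaks and no read counts, so the depth of each library is unknown.

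H3K9ac is an acetyl mark that opens nucleosomes at promoters and enhancers, and the paralogous acetyltransferases Kat2a and Kat2b write most of it. H3K4me3 is a methyl mark of transcription start sites, written by the Setd1 and MLL methyltransferase complexes, some of which bind unmethylated CpG dinucleotides. In MLL-AF9 leukemia the fusion protein keeps *Hoxa9* and *Meis1* active, and these loci carry unusually broad domains of active marks.

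The sequences printed next are promoters with both marks, promoters with one mark, and distal H3K9ac regions. They are shown because the classes of region differed in their median CpG content, and CpG dinucleotides are therefore in capitals. All are from mm10. The promoter sequences span the 180 bp immediately upstream of an annotated transcription start site (TSS) and hold no exon of the gene named. *Cebpa* (chr7:35119113-35119292, + strand) and *Cebpd* (chr16:15887106-15887285, + strand), which encode myeloid transcription factors, had both marks, and their sequences hold 13 and 17 CpG. The *Cebpa* sequence also lies within an antisense transcript.
Cebpa: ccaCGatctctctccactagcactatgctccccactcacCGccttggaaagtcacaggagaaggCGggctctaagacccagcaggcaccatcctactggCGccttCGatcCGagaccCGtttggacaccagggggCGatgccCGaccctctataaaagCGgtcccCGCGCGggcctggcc
Cebpd: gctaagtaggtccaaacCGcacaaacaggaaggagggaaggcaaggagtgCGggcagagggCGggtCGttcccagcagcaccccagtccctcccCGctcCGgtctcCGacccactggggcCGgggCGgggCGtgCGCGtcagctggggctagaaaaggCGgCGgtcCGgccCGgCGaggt
*Lmna* (chr3:88493313-88493492, - strand, at an inner start site within the gene), *Soat2* (chr15:102150346-102150525, + strand) and *Ptpro* (chr6:137410541-137410720, + strand, at an inner start site) had H3K9ac and no H3K4me3 peak in either library. They hold 1, 4 and 0 CpG.
Lmna: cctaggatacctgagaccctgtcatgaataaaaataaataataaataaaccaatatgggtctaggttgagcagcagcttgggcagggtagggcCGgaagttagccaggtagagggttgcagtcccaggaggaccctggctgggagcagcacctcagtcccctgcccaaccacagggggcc
Soat2: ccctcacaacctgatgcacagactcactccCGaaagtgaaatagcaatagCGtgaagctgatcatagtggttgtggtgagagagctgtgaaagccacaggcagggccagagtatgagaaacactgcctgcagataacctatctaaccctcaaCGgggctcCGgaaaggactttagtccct
Ptpro: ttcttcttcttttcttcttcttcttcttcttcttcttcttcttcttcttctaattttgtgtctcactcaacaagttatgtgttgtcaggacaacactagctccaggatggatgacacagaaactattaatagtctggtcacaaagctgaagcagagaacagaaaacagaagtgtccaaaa
*Rab40b* (chr11:121388252-121388431, - strand), *Dll4* (chr2:119325604-119325783, + strand, within a noncoding transcript) and *Cpm* (chr10:117629320-117629499, + strand) had H3K4me3 and no H3K9ac peak in either library. They hold 9, 8 and 22 CpG.
Rab40b: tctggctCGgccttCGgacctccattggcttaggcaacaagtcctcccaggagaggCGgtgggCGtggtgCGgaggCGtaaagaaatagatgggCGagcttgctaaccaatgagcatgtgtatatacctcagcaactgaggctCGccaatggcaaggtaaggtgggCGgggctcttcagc
Dll4: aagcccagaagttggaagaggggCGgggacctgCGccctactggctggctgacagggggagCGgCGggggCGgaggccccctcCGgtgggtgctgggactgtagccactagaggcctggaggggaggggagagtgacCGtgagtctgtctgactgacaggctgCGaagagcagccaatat
Cpm: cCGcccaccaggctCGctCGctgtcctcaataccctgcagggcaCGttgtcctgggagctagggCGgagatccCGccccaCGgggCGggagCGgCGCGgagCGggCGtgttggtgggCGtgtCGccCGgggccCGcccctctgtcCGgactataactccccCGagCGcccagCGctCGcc
The last sequences span 160 bp around the summit of H3K9ac regions without H3K4me3 in intergenic DNA, with *Ankdd1a* (chr9:65542004-65542163), *Irf2bpl* (chr12:86834286-86834445) and *Mdm1* (chr10:118103946-118104105) as the nearest genes, all on the + strand. They hold 1, 1 and 5 CpG.
Ankdd1a: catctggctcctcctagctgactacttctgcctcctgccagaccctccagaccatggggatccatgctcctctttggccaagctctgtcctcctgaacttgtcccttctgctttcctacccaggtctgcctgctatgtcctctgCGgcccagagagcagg
Irf2bpl: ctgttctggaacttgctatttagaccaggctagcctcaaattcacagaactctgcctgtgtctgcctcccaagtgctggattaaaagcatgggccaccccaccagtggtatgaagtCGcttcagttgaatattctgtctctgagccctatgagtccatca
Mdm1: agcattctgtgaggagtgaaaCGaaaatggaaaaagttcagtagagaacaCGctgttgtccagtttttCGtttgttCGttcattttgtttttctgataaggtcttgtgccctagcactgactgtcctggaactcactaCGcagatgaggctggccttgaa

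H3K4me3 lay almost wholly within H3K9ac, whereas H3K9ac also marked many places without H3K4me3. A consensus region of a mark was a merged stretch of overlapping peaks that held a peak of both replicates. There were 21458 consensus regions of H3K9ac and 12641 of H3K4me3. Of the H3K4me3 regions, 12086 overlapped an H3K9ac region, or 95.6% (95.2-96.0%, 95% Wilson interval, which covers counting error alone). Of the H3K9ac regions, 11306 overlapped an H3K4me3 region, or 52.7% (52.0-53.4%). H3K9ac was found without H3K4me3 in 10152 regions, and H3K4me3 without H3K9ac in 555. Joined across marks, the regions formed 11109 stretches with both marks, 10152 with H3K9ac alone and 555 with H3K4me3 alone.

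The libraries differed in how many peaks had been called. H3K9ac replicates 1 and 2 held 33605 and 31677 peaks over 26.8 and 28.9 Mb, and H3K4me3 replicates 1 and 2 held 23297 and 15685 peaks over 18.7 and 10.03 Mb. H3K4me3 replicate 2 was the shortest list, and a region needed a peak in it, as in replicate 1, to reach the H3K4me3 consensus. In single libraries, H3K9ac replicates 1 and 2 overlapped 81.5% and 79.7% of the peaks of H3K4me3 replicate 1, and 94.8% and 93.4% of those of H3K4me3 replicate 2. In the other direction, 51.3% and 52.2% of the peaks of H3K9ac replicates 1 and 2 overlapped a peak of H3K4me3 replicate 1, and 36.1% and 37.6% overlapped one of H3K4me3 replicate 2. H3K4me3 was thus the more fully shared mark in all 4 pairs of libraries.

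The sizes of the unshared classes depended on single libraries. When any H3K4me3 peak, in either library, was enough to remove a region from the H3K9ac class, 6454 regions were left, or 30.1% of all H3K9ac regions. Of the 10152 regions without consensus H3K4me3, 3532 (34.8%) overlapped a peak of H3K4me3 replicate 1 alone 128 a peak of replicate 2 alone and 38 separate peaks of both. Likewise, 194 of the 555 H3K4me3 regions (35.0%) overlapped no H3K9ac peak in either library, 258 overlapped one in H3K9ac replicate 1 alone, 88 one in replicate 2 alone and 15 separate peaks of both. Regions with no peak of the other mark in either library are called strict below. Without H3K4me3 replicate 2, there were 6584 H3K9ac regions without H3K4me3 and 5178 H3K4me3 regions without H3K9ac. Without H3K4me3 replicate 1, the second count was 1097. Without H3K9ac replicate 1, 19554 H3K9ac regions lacked H3K4me3, and without H3K9ac replicate 2 the counts were 21192 and 290. With each list reduced to its strongest 15685 peaks, the counts were 2942 and 1337, so that H3K9ac without H3K4me3 was still the larger class.

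**Figure D1:**
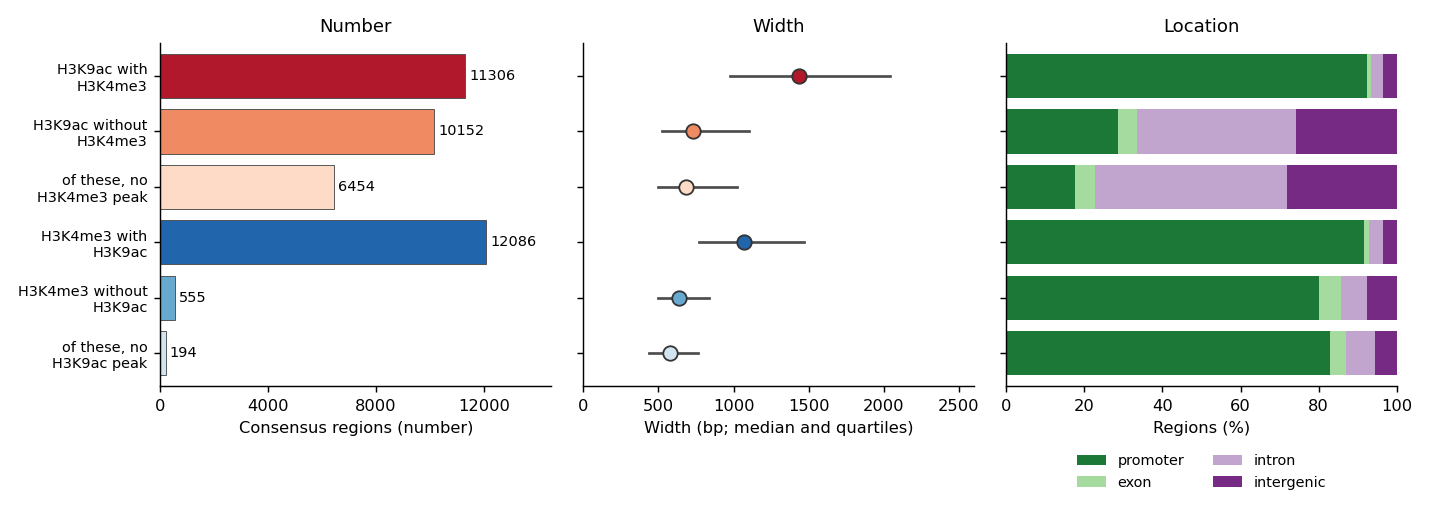
Number, width and location of the consensus regions of each class in Kat2a WT leukemia. Bars give the number of regions (left) and the percentage of regions by location (right), and points give the median width in bp with lines from the lower to the upper quartile (middle). H3K9ac without H3K4me3 (10152 regions) lay mostly outside promoters, and H3K4me3 without H3K9ac (555 regions) mostly at promoters.

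Regions with both marks were wider than regions with one. The median width was 1438 bp for H3K9ac regions with H3K4me3, 729 bp for those without it and 681 bp for the strict ones. For H3K4me3 it was 1072 bp with H3K9ac, 635 bp without it and 575.5 bp in the strict regions. The difference in H3K9ac width was seen both at promoters, where the medians were 1475 bp with H3K4me3 and 730 bp without it, and elsewhere, where they were 986.5 and 728 bp. H3K9ac spread over 28.2 Mb and H3K4me3 over 14.9 Mb, and 13.9 Mb carried both marks. The shared bases made up 93.4% of the H3K4me3 and 49.3% of the H3K9ac territory. The overlap was mostly one of nesting, since 7469 H3K4me3 regions (61.8% of those with H3K9ac) lay wholly inside an H3K9ac region. Conversely, 970 H3K9ac regions (8.58%) lay wholly inside an H3K4me3 region. As many as 4 H3K4me3 regions lay under 1 H3K9ac region, and 915 H3K9ac regions held 2 or more.

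With all peaks, the marks themselves were not separated by width. The median consensus region was 1058 bp wide for H3K9ac and 1048 bp for H3K4me3. The median peak width was 512 and 631 bp in H3K9ac replicates 1 and 2, and 632 and 546 bp in H3K4me3 replicates 1 and 2. These ranges overlapped, with a mean difference of -17.5 bp for H3K9ac minus H3K4me3 (SD 84.1 and 60.8 bp, n = 2 each; p = 0.67, two-sided exact permutation test). With 2 libraries against 2, the smallest p that this test can give is 0.33. The sign of the difference changed without H3K9ac replicate 1 (42 bp) or without H3K4me3 replicate 1 (25.5 bp). It changed also with peaks up to 500 bp apart joined (45.5 bp). With equal list lengths (398 bp) and with peaks of a -log10 q-value of at least 5 (175.5 bp) both H3K9ac libraries had the wider peaks (p = 0.33 each, exact permutation test), so the result depended on which peaks were kept.

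Stronger H3K9ac regions more often carried H3K4me3. Strength was the fold enrichment at the summit, the ratio over local background that the authors' peak caller gave. H3K9ac regions with H3K4me3 had median fold enrichments of 10.4 and 10.7 in H3K9ac replicates 1 and 2, against 3.51 and 4.34 in regions without it. H3K4me3 regions with H3K9ac had 8.31 and 5.37 in H3K4me3 replicates 1 and 2, against 4.68 and 3.79 in regions without it. Over deciles of the H3K9ac regions, ordered by the lower of their replicate values, the share with H3K4me3 went from 10.1% in the weakest through 40.2% and 59.9% in the middle to 98.6% in the strongest. Over deciles of H3K4me3 the share with H3K9ac went from 87.6% to 100%. A weak H3K4me3 region was thus more often shared than an H3K9ac region of median strength. Regions are not replicates, and no test was made across them.

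**Figure D2:**
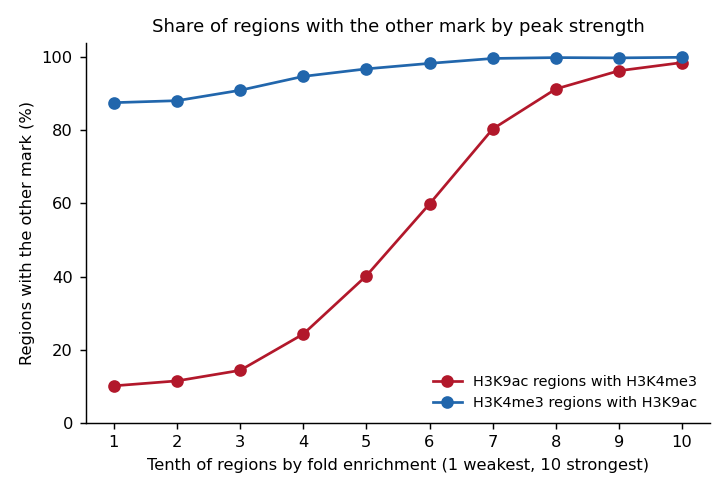
Share of the consensus regions of each mark that overlapped a region of the other mark, over deciles of fold enrichment (the ratio at the summit over local background; the lower of the values of the 2 replicates), in Kat2a WT leukemia. The share of H3K9ac regions with H3K4me3 went from 10.1% to 98.6%, and that of H3K4me3 regions with H3K9ac from 87.6% to 100%.

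Around shared promoters, H3K9ac extended past H3K4me3 on both sides of the TSS. This was measured in 4226 protein-coding genes of at least 5 kb that had both marks at the promoter and no other gene's TSS within 5 kb. Here the promoter was the stretch from 1 kb upstream to 500 bp downstream of the outermost TSS. In the 5 kb upstream, peaks covered a mean of 489 and 523 bp in H3K9ac replicates 1 and 2, and 370 and 182 bp in H3K4me3 replicates 1 and 2. In the 5 kb downstream they covered 1258 and 1259 bp in H3K9ac, and 1092 and 742 bp in H3K4me3. Both H3K9ac libraries lay above both H3K4me3 libraries on either side. The mean difference was 230 bp upstream, a 1.83-fold ratio, and 342 bp downstream, a 1.37-fold ratio (both p = 0.33, two-sided exact permutation test, n = 2 libraries each, the smallest p the test allows). Downstream of the TSS the H3K9ac replicates differed little (SD 1.01 bp) and the H3K4me3 replicates more (SD 248 bp), and upstream the SDs were 23.9 and 133 bp. Without H3K4me3 replicate 2, the differences fell to 137 bp upstream and 170 bp downstream, still in the same direction.

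Single genes followed the means. H3K9ac covered more bases than H3K4me3 in every pair of libraries upstream of 2074 of the 4226 genes (49.1%) and downstream of 2141 (50.7%). The reverse held upstream of 117 genes (2.77%) and downstream of 105 (2.48%). By the outer edge of the consensus regions, H3K9ac reached farther upstream in 3210 genes, or 76.0% (74.6-77.2%), and farther downstream in 3149, or 74.5% (73.2-75.8%). It did so on both sides in 2483 genes (58.8%) and on neither in 350 (8.28%). The median edge was 466 bp upstream for H3K9ac against 240 bp for H3K4me3, and 1072 bp downstream against 917.5 bp. An overhang of more than 1 kb was uncommon for H3K9ac, with 155 genes upstream and 242 downstream, and rarer for H3K4me3, with 0 and 8. With replicate 1 of both marks H3K9ac reached farther upstream in 64.1% and downstream in 62.8% of genes, and with replicate 2 of both in 88.3% and 89.6%.

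Both marks leaned into the gene body. Downstream coverage was 2.57 and 2.41 times the upstream coverage in H3K9ac replicates 1 and 2, and 2.95 and 4.07 times in H3K4me3 replicates 1 and 2. By this ratio H3K4me3 was the more one-sided mark. The shares of genes with more coverage downstream than upstream were close. They were 90.8% and 88.9% in H3K9ac replicates 1 and 2, and 91.5% and 92.0% in H3K4me3 replicates 1 and 2. In bins of 50 bp, coverage was highest between 250 and 350 bp downstream of the TSS in all 4 libraries, where peaks covered 95.7% and 94.9% of the bases in H3K9ac and 94.0% and 82.8% in H3K4me3. The stretch with at least 50% of this height ran over 1500 bp in both H3K9ac libraries, and over 1300 and 850 bp in H3K4me3 replicates 1 and 2. The summits nearly coincided, with medians 254 and 258 bp downstream of the TSS for H3K9ac and 281 and 274 bp for H3K4me3. Within a gene they lay a median of 65 bp apart between libraries of replicate 1 and 73 bp apart between libraries of replicate 2, against 43 bp between the replicates of H3K9ac and 81 bp between those of H3K4me3. The marks therefore shared a center and differed in their flanks. Fold enrichments had a Spearman correlation across genes, which are not replicates, of 0.43 and 0.35 between marks, 0.75 between the H3K9ac replicates and 0.39 between the H3K4me3 replicates.

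**Figure D3:**
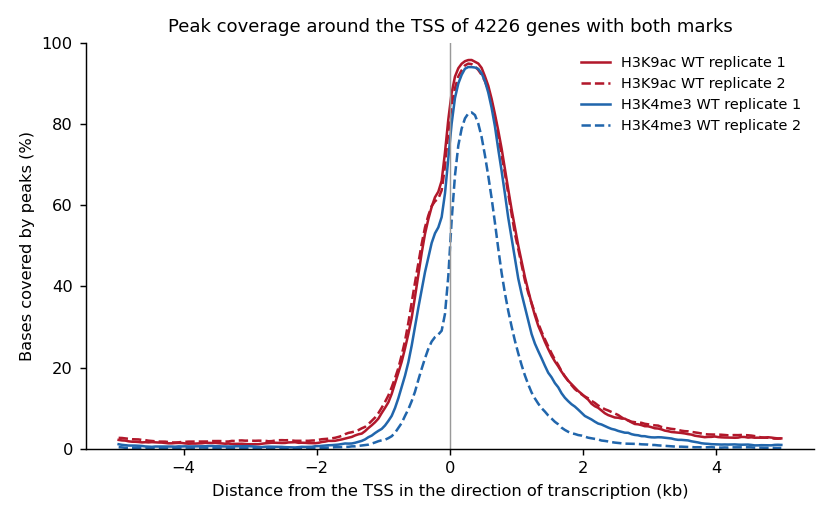
Percentage of bases covered by peaks at each distance (kb, bins of 50 bp) from the TSS, over the 4226 genes with both marks at the promoter, with 1 line per library of Kat2a WT leukemia. All 4 lines are highest between 250 and 350 bp downstream of the TSS, and the H3K9ac lines are wider than the H3K4me3 lines on both sides.

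At 10 genes, named for the longest downstream extension of H3K9ac past H3K4me3, H3K9ac ran several kilobases into the gene body while H3K4me3 ended sooner. At *Per2*, a repressor of the circadian clock, H3K9ac covered 3982 and 3988 bp downstream in replicates 1 and 2, and H3K4me3 733 and 605 bp. At *Zc3h12a*, which encodes an RNase that degrades inflammatory mRNAs, the whole 5000 bp were covered by H3K9ac in both replicates, and H3K4me3 covered 2612 and 779 bp. Its paralog *Zc3h12c* had 4262 and 4071 bp of H3K9ac and 1200 and 954 bp of H3K4me3. All of these H3K9ac values lay above all H3K4me3 values of the gene, as the choice of the genes required. *Piezo1*, a mechanosensitive ion channel, had 3186 and 3869 bp of H3K9ac against 724 and 442 bp of H3K4me3. *Adipor1*, an adiponectin receptor, had 3357 and 4445 bp against 1249 and 953 bp. *Ninj1*, *Rassf4*, *Rab3gap2*, *Mbnl2* and *Iffo1* completed these 10 genes, each with at least 3208 bp of H3K9ac in both replicates.

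Upstream, the longest extensions were at *Ncf1*, *Traf3*, *Egr1*, *Erbin* and *B4galt5*. *Ncf1*, a subunit of the phagocyte NADPH oxidase, had 3509 and 4478 bp of H3K9ac upstream of its TSS, 73 bp of H3K4me3 in replicate 1 and none in replicate 2. *Traf3*, an adaptor of TNF receptors, had 3086 and 3360 bp of H3K9ac against 354 bp of H3K4me3 in replicate 1 and none in replicate 2. Downstream of the *Ncf1* TSS H3K4me3 covered 4284 and 2227 bp, but its replicate 2 had no peak in the promoter window of that TSS. *Egr1*, an immediate-early transcription factor, had 2237 and 2737 bp of upstream H3K9ac and no upstream H3K4me3 in either library. *B4galt5* likewise had 2132 and 2244 bp of H3K9ac and no upstream H3K4me3, and *Erbin* had 3526 and 3670 bp against 1366 and 771 bp. As at *Ncf1*, H3K4me3 replicate 2 had no peak in the promoter window of the outermost TSS at *Egr1* and *B4galt5*.

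The opposite pattern was limited in size. H3K4me3 extended farthest past H3K9ac at *Pde5a*, a cGMP phosphodiesterase, where downstream H3K4me3 covered 2075 and 1766 bp and H3K9ac 856 and 404 bp. At *Six4*, a homeobox factor, it covered 1445 and 1083 bp against 604 and 285 bp, and at *Lrp11* 935 and 823 bp against 262 bp and none. *Rasd2* and *Rhpn2* showed it upstream, with 892 and 720 bp against 326 and 328 bp, and with 650 and 392 bp against none in either library.

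The widest H3K9ac regions were at targets of MLL-AF9 and at *Baz2b*, *Zfp36* and *Erg*. The widest ran for 20098 bp over *Hoxa7*, *Hoxa9* and *Hoxa10* (chr6:52215127-52235224), and a single H3K9ac peak filled 19998 and 20098 bp of it in replicates 1 and 2. H3K4me3 covered 18422 bp of this stretch in replicate 1 and 13053 bp in replicate 2, in 5 and 11 separate peaks. The next was a region of 15456 bp at *Meis1* (chr11:19006896-19022351), of which H3K4me3 covered 14020 and 7990 bp. At both loci nearly the whole H3K9ac domain also carried H3K4me3 in replicate 1. At *Baz2b* (13958 bp), at *Med29* and *Zfp36* (12851 bp) and at *Erg* (12411 bp) H3K4me3 covered less, with 9221 and 4633 bp, 5570 and 2659 bp, and 6512 and 2897 bp. The widest H3K4me3 regions were at *Meis1* (9401 bp), *Hoxa7* and *Hoxa9* (7364 bp), *Tsc22d2* (7157 bp), *Ikzf2* (6958 bp) and *Irf2bp2* (6294 bp). H3K9ac covered at least 6147 bp of each in both replicates. Regions of at least 5 kb numbered 181 for H3K9ac and 12 for H3K4me3.

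H3K9ac without H3K4me3 lay mostly inside genes and between them, and H3K4me3 without H3K9ac at promoters. For regions, a promoter was the same window around any annotated TSS. Promoters held 92.4% of the H3K9ac regions with H3K4me3, and 2897 of the 10152 without it, or 28.5% (27.7-29.4%). Introns held 4124 (40.6%) of the latter, intergenic DNA 2628 (25.9%) and exons 503 (4.95%). Of the strict H3K9ac regions 17.6% lay at promoters and 49.1% in introns. A distance of at least 5 kb from any TSS was found for 4802 H3K9ac regions without H3K4me3 (47.3%) and for 524 with it (4.63%). The share at promoters was 18.2% without H3K4me3 replicate 2. It was 16.7% for single peaks of replicate 1 and 23.6% for those of replicate 2, but 59.3% with peaks of a -log10 q-value of at least 5 and 43.0% with equal list lengths, and 52.7% of the regions had their center within 5 kb of a TSS.

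H3K4me3 without H3K9ac was a small, promoter-bound class. Of its 555 regions 444 lay at promoters, or 80.0% (76.5-83.1%), and of the 194 strict ones 161 did, or 82.99%. Promoters held 91.6% of the H3K4me3 regions with H3K9ac. The 80.0% needed both H3K4me3 replicates, since the share was 51.8% without H3K4me3 replicate 1 and 37.7% without H3K4me3 replicate 2. These regions lay a median of 48.2 kb from the nearest consensus H3K9ac region. H3K9ac regions without H3K4me3 lay a median of 18.1 kb from the nearest consensus H3K4me3 region. Peaks outside the consensus are left out of these distances, and all but the 194 strict H3K4me3 regions overlapped such an H3K9ac peak. A region of the other mark lay within 1 kb of 65 of the 555 regions (11.7%) and of 1075 of the 10152 (10.6%). At promoters, 357 of the 1138 strict H3K9ac regions (31.4%, 28.7-34.1%) had an H3K4me3 peak within 1 kb, against 435 of the 5316 elsewhere (8.18%). Strict H3K9ac regions at promoters were thus more often close neighbors of an H3K4me3 peak than those elsewhere.

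The 10 strongest strict H3K4me3 promoters included that of a Notch ligand and most lay far from any H3K9ac peak. At *Dll4*, a Notch ligand (chr2:119325644-119327111), the fold enrichment of H3K4me3 was 5.66 and 4.82 in replicates 1 and 2. At *Lhfp* (chr3:53041198-53041927) it was 6.91 and 4.46, and at *Cpm*, which encodes carboxypeptidase M (chr10:117629093-117629945), 4.61 and 5.13. No H3K9ac peak lay within 10239 bp of *Dll4*, 23821 bp of *Lhfp* or 54917 bp of *Cpm*. *Rab40b*, a Rab GTPase, had 4.96 and 5.37, *En2*, a homeobox factor of the brain, 4.82 in both replicates, and *Ptprk*, a receptor tyrosine phosphatase, 4.56 and 5.06. The nearest H3K9ac peak was 32256, 93980 and 518417 bp away, so these were promoters far from any H3K9ac. The region shared by *Acvr1* and *Upp2* had 4.82 and 5.06, and *Nxph3* had 4.68 and 5.37. *Plekha8* (4.98 and 5.06) and *Dlk2* (5.35 and 4.65) had an H3K9ac peak 206 and 191 bp away and so were borderline members. None of these regions overlapped a peak of H3K27ac, another acetyl mark, in WT replicate 2, the only one used for that mark.

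The strongest strict H3K9ac promoters fell into borderline and isolated ones. *Pogz* (15.3 and 14.8 in H3K9ac replicates 1 and 2), *Rap2c* (13.1 and 14.1), *Gtf2a1* (10.9 and 17.1) and *Ncoa1* (10.99 and 9.75) had an H3K4me3 peak 210, 113, 170 and 129 bp away. So did the region of *Bbip1* and *Shoc2* (14.1 and 11.2), at 294 bp, and *Abhd5* (8.96 and 9.88), at 151 bp. At these the marks were neighbors without a common base. *Lmna*, which encodes the A-type lamins (chr3:88492190-88494179), had 11.2 and 21.1, and its nearest H3K4me3 peak was 7813 bp away. *Soat2*, a cholesterol-esterifying enzyme (chr15:102150030-102151587), had 10.2 and 12.2 at 13097 bp, and *Cd3d*, a subunit of the T cell receptor complex (chr9:44985829-44987371), had 10.97 and 10.6 at 20198 bp. *Ptpro*, a receptor tyrosine phosphatase (chr6:137410625-137411480), had 10.1 and 9.75 at 323163 bp. The *Lmna* and *Ptpro* regions lay at inner start sites.

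H3K9ac without H3K4me3 was mostly weak, with median fold enrichments in replicates 1 and 2 of 3.36 and 4.21 away from promoters and 4.07 and 4.69 at promoters. With H3K4me3 the medians were 5.24 and 6.19 away from promoters and 10.9 and 11.1 at promoters. A few distal regions without H3K4me3 came near these last medians, and the strongest lay above both. The other distal regions named here lay below the replicate 1 median and above the replicate 2 median. The strongest such region at least 5 kb from any TSS was 2835 bp wide (chr9:65540820-65543654), lay 12.4 kb from the nearest TSS, with *Ankdd1a* the nearest gene, and had fold enrichments of 11.6 and 21.2. Those nearest to *Irf2bpl* (chr12:86834080-86835479) and *Mdm1* (chr10:118103048-118104342) had 10.6 and 12.1, and 10.6 and 13.5. A region within *Nfam1*, a signaling receptor of blood cells (chr15:83008886-83009715), had 9.55 and 14.0. All 4 of these overlapped a peak of H3K27ac in WT replicate 2, with fold enrichments from 9.36 to 14.8, in contrast to the 10 strict H3K4me3 promoters above.

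The same contrast held for whole classes. H3K27ac peaks of WT replicate 2 overlapped 83.1% of H3K9ac regions with H3K4me3, 63.9% of those without it, and 16 of the 555 H3K4me3 regions without H3K9ac (2.88%, 1.78-4.63%). H3K4me1, a mark of enhancers, overlapped 27.6%, 45.2% and 17.1% of these classes, also by 1 library. H3K9ac regions without H3K4me3 thus overlapped H3K4me1 more often than those with it, and H3K4me3 regions without H3K9ac had hardly any of the other acetyl mark.

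The classes differed in sequence. The printed promoters follow the classes for H3K9ac alone, but *Rab40b* and *Dll4* hold fewer CpG than the printed promoters with both marks. CpG dinucleotides were counted in 500 bp around each summit. At promoters the median was 40 CpG for H3K9ac regions with H3K4me3, 15 without it and 10 in the strict ones, and 46 for H3K4me3 regions without H3K9ac and 47 in the strict ones. The median around all protein-coding start sites was 23. Windows with at least 50% G and C and at least 0.6 of the CpG expected from it were called CpG-rich. These made up 81.7% of the promoter regions of H3K9ac with H3K4me3, 32.4% without H3K4me3 and 12.4% of the strict ones (10.6-14.5%). They made up 86.9% of the promoter regions of H3K4me3 without H3K9ac and 91.3% of the strict ones (85.9-94.7%), against 47.6% of all protein-coding start sites. Away from promoters H3K9ac regions without H3K4me3 had a median of 7 CpG, and 2.37% were CpG-rich, while H3K4me3 regions without H3K9ac had 30 and 56.8%. H3K4me3 without H3K9ac was therefore mostly CpG-rich, more so at promoters than elsewhere, and H3K9ac without H3K4me3 was mostly CpG-poor.

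**Figure D4:**
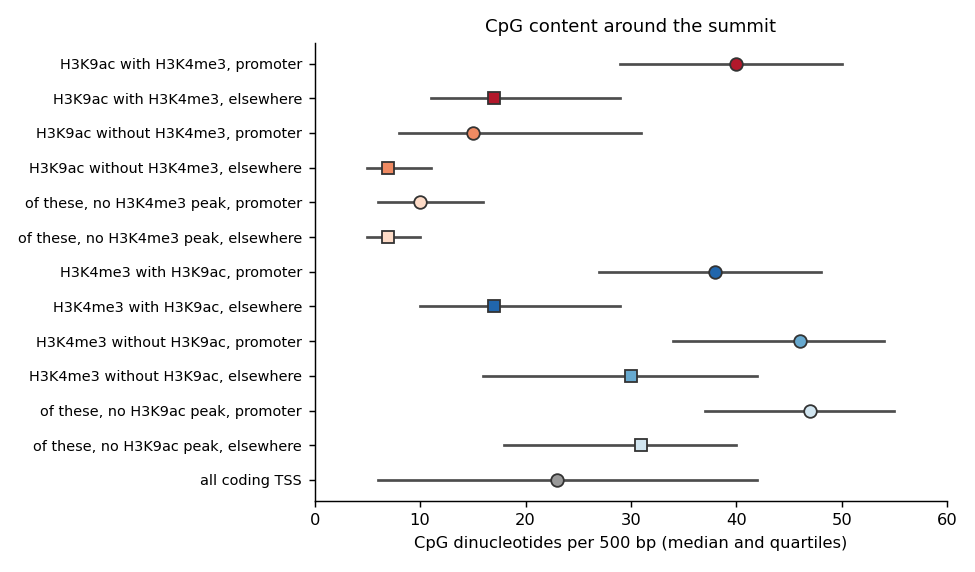
CpG dinucleotides in 500 bp around the summit, by class of consensus region and by location, in Kat2a WT leukemia. Points give the median and lines the quartiles. At promoters H3K9ac without H3K4me3 had a median of 15 CpG and H3K4me3 without H3K9ac one of 46.

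Short motifs of blood transcription factors also differed between classes. Each was searched on both strands in 200 bp around the summit, and a match is a description of the letters alone. The RUNX motif TGTGGT was found in 15.4% of H3K9ac regions without H3K4me3, in 6.85% of those with it and in 4.50% of H3K4me3 regions without H3K9ac. It was found around 9.94% of all protein-coding start sites. The ETS motif AGGAAGT was found in 7.53%, 2.99% and 2.70% of these classes, against 6.54% of all start sites, and the CEBP motif TTGCNNAA in 7.40%, 3.86% and 4.86%, against 5.70%. AP-1 (TGANTCA) was found in 4.80%, 1.92% and 2.34%, against 4.09%, and AGATAA, to which GATA factors bind, in 7.56%, 2.52% and 2.70%, against 5.34%. Of the 3 classes, H3K9ac without H3K4me3 thus held each of these 5 motifs most often. Start sites with neither mark, which were also CpG-poor, held RUNX at 12.6%, ETS at 6.46% and CEBP at 7.06%, below the H3K9ac class, but AP-1 at 5.57% and AGATAA at 8.14%, above it. Away from promoters H3K9ac without H3K4me3 still had the highest shares of RUNX, ETS, AP-1 and AGATAA, but not of CEBP. In the 3 classes RUNX was found in 16.2%, 12.4% and 9.01%, and ETS in 8.53%, 4.77% and 5.41%. AP-1 was found in 5.11%, 3.84% and 2.70%, AGATAA in 8.30%, 7.09% and 3.60%, and CEBP in 7.95%, 7.91% and 9.01%. There the third class held only 111 regions, with a Wilson interval of 4.97-15.8% for RUNX and 2.50-11.3% for ETS. For AP-1 and AGATAA the intervals of the H3K9ac regions without and with H3K4me3 overlapped. The E-box, NRF1 and GABPA motifs, which all hold a CpG, did not follow this order: CACGTG (E-box) was found in 3.34%, 3.51% and 4.50%, against 5.66%, the NRF1 motif GCATGCGC in 0.483%, 0.548% and 0.901%, against 2.69%, and the GABPA motif CCGGAAGT, which shares its core with the ETS motif, in 0.473%, 1.21% and 1.08%, against 4.33%. The YY1 motif AAGATGGC was found in 0.749%, 1.19% and 0.180%, against 2.78%. Base composition and location differed between the classes, and their part in these shares was not tested.

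At genes, most marked promoters carried both marks. Of 21938 protein-coding genes, 10302 (47%) had both marks at a promoter, 1016 (4.63%) H3K9ac alone, 341 (1.55%) H3K4me3 alone and 10279 (46.9%) neither. A gene was counted by consensus regions that overlapped the promoter window of any of its start sites. Genes with H3K9ac alone had weaker H3K9ac than genes with both marks, with median fold enrichments of 4.62 and 4.96 in replicates 1 and 2 against 11.9 in both. H3K4me3 replicate 1 had a peak at 76.2% of the promoters with H3K9ac alone and replicate 2 at 3.94%, so most of this class rested on replicate 2. H3K9ac replicate 1 had a peak at 50.4% of the promoters with H3K4me3 alone and replicate 2 at 15.8%. That class thus also depended on single libraries. By the strictest count, in which neither the promoter nor the whole region that reached it held a peak of the other mark in either library, 195 genes had H3K9ac alone and 123 H3K4me3 alone.

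Markers of blood cells and of other cells describe the labelled tissue. They were chosen with earlier results of these data known, so their counts are no independent check of it. Of 12 blood cell receptor genes given as markers, 8 had both marks and 3 H3K9ac alone, against 47% and 4.63% of all protein-coding genes. Of 9 myeloid factors these were 7 and 2, of 6 granule and myeloid genes 4 and 2, and the MLL-AF9 targets *Hoxa9* and *Meis1* had both. The 6 granule and myeloid genes are part of a longer list of 15. Of these 15, 6 had both marks (40%, below the 47% of all protein-coding genes), 6 H3K9ac alone and 3 neither. None of 5 B cell markers had either mark, although outside these 5 *Cd79b* and *Vpreb1*, a pre-B cell receptor chain, had both. *Vpreb1* had 23.9 and 16.6 in H3K9ac and 12.4 and 4.95 in H3K4me3, and *Cd3d*, a T cell gene, was among the strongest strict H3K9ac promoters. H3K9ac alone was found at 1 of 6 erythroid and megakaryocytic markers, *Klf1*, and at 1 of 6 T and NK cell markers, *Lck*. In the longer list of 12 erythroid and megakaryocytic genes, 3 had H3K9ac alone, 1 H3K4me3 alone and 8 neither. Of 6 markers of stroma and endothelium, *Col1a1* and *Pecam1* had H3K9ac alone, *Pdgfra* and *Cxcl12* H3K4me3 alone, and *Lepr* and *Cdh5* neither. Whether these peaks came from other cells of the pooled marrow was not tested. Recipient cells that remain in the marrow and leukemic cells cannot be told apart in bulk chromatin.

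Targets of the fusion and myeloid regulators mostly carried both marks. Of 13 MLL-AF9 targets 12 had both, against 47% of all protein-coding genes, and *Hoxa5* had neither. The median fold enrichment over these targets was 15.7 and 17.8 in H3K9ac and 9.18 and 7.27 in H3K4me3. Of 12 myeloid transcription factors 10 had both. *Cebpb*, a C/EBP factor of granulocytes and macrophages, had H3K9ac alone, with 14.9 and 11.7 in H3K9ac and 4.82 in H3K4me3 replicate 1 but no peak in replicate 2. *Irf8*, which directs monocyte development, likewise had 4.51 and 6.52 in H3K9ac and 5.82 in H3K4me3 replicate 1 alone. Both therefore lacked H3K4me3 in a single library.

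Several granule and receptor genes had H3K9ac alone, which 4.63% of all protein-coding genes had. Of 15 granule and myeloid effector genes, 6 had both marks (40%, against 47% of all protein-coding genes), 6 had H3K9ac alone (*Mpo*, *S100a9*, *Ngp*, *Mmp9*, *Itgam* and *Cybb*) and 3 had neither (*Ltf*, *Mmp8* and *Ly6g*). *Itgam*, the integrin chain CD11b, had 8.64 and 16.2 in H3K9ac, 6.82 in H3K4me3 replicate 1 and no peak in replicate 2. *S100a9*, a calcium-binding protein of neutrophils, had 7.29 and 7.63, 4.23 and no peak. At *Mpo*, the myeloperoxidase gene, H3K4me3 had peaks in both replicates (3.34 and 3.16) that did not overlap each other, beside 3.72 and 2.92 in H3K9ac. Of 12 receptor and surface genes, 8 had both marks, and *Csf2ra*, *Il3ra* and *Cd34* had H3K9ac alone. *Csf2ra*, the alpha chain of the GM-CSF receptor, had 37.7 and 28.9 in H3K9ac against 6.94 in H3K4me3 replicate 1 and no peak in replicate 2. All 9 of these genes with H3K9ac alone had an H3K4me3 peak in replicate 1, and 0 belonged to the strictest count. A missing peak in H3K4me3 replicate 2 was not particular to them, since of the granule genes with both marks *Elane*, *Ctsg* and *Camp* also had no replicate 2 peak in the promoter window, although a consensus region overlapped it.

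By consensus regions, canonical histone genes had the largest share with H3K9ac alone among the gene lists. Of 67 genes 30 had H3K9ac alone, 26 both marks and 11 neither, against 4.63% of all protein-coding genes with H3K9ac alone. The 30 genes with H3K9ac alone had 32 H3K9ac regions at their promoters. An H3K4me3 peak lay in a promoter window of 21 of the 30 genes in replicate 1 and of 2 in replicate 2. By the strictest count 5 of the 67 genes had H3K9ac alone, against 0.889% of all protein-coding genes. The erythroid and stromal lists each had 1 of 12 by that count, so the ranking did not hold there. Many of these genes share a promoter region with a neighbor, so that they are not independent. *Hist1h2bb* and *Hist1h3c*, which share one, had 11.9 and 9.46 in H3K9ac, 4.01 in H3K4me3 replicate 1 and no peak in replicate 2. *Hist1h2ad* and *Hist1h2bf* had 6.53 and 4.77 in H3K9ac and no H3K4me3 peak in either library.

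**Figure D5:**
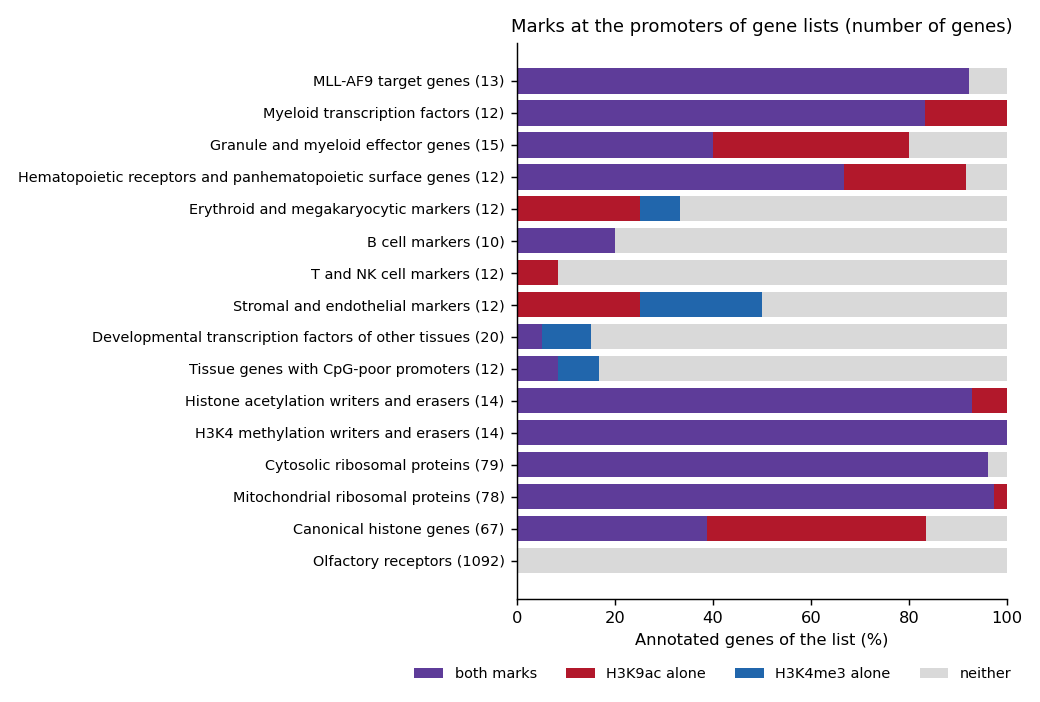
Marks at the promoters of the gene lists in Kat2a WT leukemia, as the percentage of genes of each list with both marks, H3K9ac alone, H3K4me3 alone or neither. Canonical histone genes have H3K9ac alone at 30 of 67 promoters, and MLL-AF9 targets have both marks at 12 of 13.

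Housekeeping groups had both marks almost throughout, against 47% of all protein-coding genes. Both were found at 76 of 79 cytosolic ribosomal protein genes, with neither at the other 3, and at 76 of 78 mitochondrial ones, where *Mrpl52* and *Mrpl54* had H3K9ac alone. Of the enzymes that write and remove the marks, all 14 H3K4 methylation genes and 13 of 14 acetylation genes had both. *Kat2a* itself had 8.002 and 4.58 in H3K9ac and 6.50 and 3.52 in H3K4me3, and *Kat2b* 15.1 and 15.8, and 6.28 and 7.27. *Sirt6*, a deacetylase of H3K9, was the gene with H3K9ac alone, with 12.2 and 10.4 in H3K9ac, 7.78 in H3K4me3 replicate 1 and no peak in replicate 2.

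Genes of other lineages mostly had neither mark, which held for 46.9% of all protein-coding genes, while 4.63% had H3K9ac alone and 1.55% H3K4me3 alone. Of 20 developmental transcription factors of other tissues 17 had neither mark, *Six4* had both, and *Pax6* and *Irx3* had H3K4me3 alone. Among the 17, *Pax3* (3.30), *Gata4* (2.96), *Gata6* (4.17), *Tbx5* (3.04) and *Lhx2* (4.01) had an H3K4me3 peak in replicate 1 alone. *Lhx2* also had a peak of 3.02 in H3K9ac replicate 1, and the others of the 17 had no peak. *Pax6*, an eye and brain factor, had 4.34 and 3.16 in H3K4me3 and no H3K9ac peak. *Irx3* had 5.62 and 3.40 in H3K4me3 and a peak of 3.83 in H3K9ac replicate 1. Of 12 tissue genes with CpG-poor promoters 10 had neither, *Mbp* both and *Ckm* H3K4me3 alone, with a peak of 2.93 in H3K9ac replicate 1. Of 12 stromal and endothelial genes *Pdgfra*, *Cxcl12* and *Kdr* had H3K4me3 alone, *Col1a1*, *Pdgfrb* and *Pecam1* H3K9ac alone and 6 neither. The share with neither (50%) was close to that of all genes. The shares with H3K4me3 alone and with H3K9ac alone (25% each) were above those of all genes, and none had both marks. *Kdr*, a VEGF receptor, had 4.69 and 4.11 in H3K4me3 and no H3K9ac peak. Among 12 erythroid and megakaryocytic genes *Gp1bb* had H3K4me3 alone, *Klf1*, *Itga2b* and *Gp9* H3K9ac alone and 8 neither. Of 10 B cell genes 2 had both marks and 8 neither, and of 12 T and NK cell genes *Lck* had H3K9ac alone and 11 neither. Of 1092 olfactory receptor genes 1091 had neither mark and 1 had both.

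The direction of the asymmetry was the same in *Kat2a* KO leukemia, made from donors that carried Mx1-Cre, but the class sizes differed. Built in the same way from 2 replicates a mark, KO had 18783 H3K9ac regions, of which 62.9% overlapped H3K4me3, and 13779 H3K4me3 regions, of which 92.4% overlapped H3K9ac. H3K9ac without H3K4me3 numbered 6975 regions in KO and 10152 in WT, with 28.7% and 28.5% at promoters. H3K4me3 without H3K9ac numbered 1045 in KO and 555 in WT, with 76.8% and 80.0% at promoters. KO regions overlapped 96.0% of the WT H3K9ac regions with H3K4me3 but 57.1% of those without it, counting KO H3K9ac. They overlapped 93.5% of the WT H3K4me3 regions with H3K9ac and 51.7% of those without it, counting KO H3K4me3. Regions with one mark were therefore found again less often than regions with both. Among the 10 strongest strict H3K4me3 promoters of WT, KO H3K4me3 was found again at 8, not at *Nxph3* and *Ptprk*, and KO H3K9ac was found at *Dll4* and at *Acvr1* and *Upp2*. KO H3K4me3 overlapped 69 (42.9%) of all 161 strict H3K4me3 promoter regions, and KO H3K9ac overlapped 9 (5.59%). No difference between genotypes was tested.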

How the data were processed

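By their processing notes, the authors used BWA for alignment against mm10, and MACS2 for peaks, library by library (versions not stated). The deposited peak lists gave a score, the fold enrichment (a ratio), and a -log10 p-value and -log10 q-value per peak; the deposited lists also held peaks beyond a q-value of 0.05, and all were kept. H3K9ac and H3K4me3 of both genotypes and WT replicate 2 of H3K27ac and H3K4me1 were used. The replicate 1 lists of the latter marks hold few peaks past that q-value, and their KO lists were not needed. An overlap was 1 bp or more. GENCODE M21 gave the genes, on chromosomes 1 to 19, X and Y. Exact permutation tests were two-sided, and shares had 95% Wilson intervals. Named genes were the listed ones and those with the highest fold enrichment (lower of 2 replicates) or longest extension. Some of them are not reported here. Members and lists were chosen with earlier results of these data known. Alternatives changed thresholds, list lengths, overlaps, TSS choice and libraries. Python 3.11.15, numpy 2.4.6, scipy 1.17.1, matplotlib 3.10.9, pysam 0.24.0 and bedtools 2.31.1 were used, and interval code was checked on simulated data.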

Additional observations from a re-analysis of the deposited data

How the results depend on the processing

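Of 127 values under other settings, 84 moved by less than the spread between libraries, or within 1.5 times for counts, or kept the direction of a tested difference. Another 36 moved more, and 7, all of median peak width, changed sign. Leaving out single libraries (36 of the 127) was chosen after seeing the data. The covered-length differences kept their direction under all settings run, from 111 to 341 bp upstream and from 156 to 518 bp downstream. With the replicate number as a block they were 119 and 341 bp upstream, 166 and 518 bp downstream, and -120 and 85 bp for median peak width. The labels do not say what libraries of the same replicate number share, so the meaning of this pairing is unknown.

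With 1 library or 1 replicate number left out, the share of H3K4me3 regions with H3K9ac ran from 77.8% to 97.7%, and that of H3K9ac regions with H3K4me3 from 36.9% to 69.3%. H3K9ac regions without H3K4me3 ran from 6584 to 21192, and H3K4me3 regions without H3K9ac from 290 to 5178. The promoter share ran from 16.7% to 28.5% and from 32.0% to 81.9% in these classes, and the width difference from -120 to 85 bp, with 42 bp without H3K9ac replicate 1 and 25.5 bp without H3K4me3 replicate 1.

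With 15685 peaks in each list, 77.1% of H3K9ac regions had H3K4me3, the unshared classes held 2942 and 1337 regions, 43.0% of the former lay at promoters, and the width difference was 398 bp. With any peak of the other mark counted, 69.9% of H3K9ac regions had H3K4me3, and 6454 and 194 regions were unshared. With a -log10 q-value of at least 5, 190 H3K4me3 regions lacked H3K9ac, 59.3% of the H3K9ac regions without H3K4me3 lay at promoters, and the width difference was 175.5 bp. With peaks up to 500 bp apart joined it was 45.5 bp. The promoter share of H3K9ac without H3K4me3 was 52.7% for centers within 5 kb of a TSS and 19.98% for outermost TSS. The cause was not tested. Depth is unknown and limits which weak peaks were called.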

Other observations

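Long noncoding RNA genes were marked less often than protein-coding genes, and most of their marked promoters carried both marks. Of 10155 such genes 1389 (13.7%) had both marks, 408 (4.02%) H3K9ac alone and 74 (0.729%) H3K4me3 alone, and 8284 (81.6%) had neither. The shares of protein-coding genes were 47%, 4.63%, 1.55% and 46.9%. In *Kat2a* KO leukemia the covered length of H3K9ac at promoters exceeded that of H3K4me3 by 162 bp upstream and 225 bp downstream.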
